A study of Mus musculus with 16 samples.

Results

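The circadian clock genes of sorted mouse retinal microglia are described here across 4 days around an optic nerve injury. They are 10 genes taken by symbol (Arntl, Clock, Per1, Per2, Per3, Cry1, Cry2, Nr1d1, Nr1d2 and Dbp) from a table of 55385 genes. Of the 10, 9 reached at least 1 FPKM in at least 4 libraries and were among the 14795 genes tested, and Per1, at 1 FPKM or more in 3 libraries, was not. FPKM are fragments scaled by gene length and by the reads of the library. The 16 libraries are bulk RNA of Iba1-EGFP mouse retina, from cells sorted by fluorescence and labelled as microglia. In these mice the promoter of Iba1 (Aif1) drives EGFP, and macrophages other than microglia use that promoter too. The 4 groups have 4 libraries each: day 0 without treatment (15 weeks old), and days 2 (13 weeks), 4 (13 weeks) and 7 (16 weeks) after optic nerve crush, which damages the axons of retinal ganglion cells. All 10 microglia markers checked (such as Cx3cr1, P2ry12 and Tmem119) were above 0 in each group, with a summed level of 3118 to 12276 FPKM per library.

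The clock is a feedback loop of transcription that runs in nearly all cells, in the retina and in immune cells too. The proteins of Clock and Arntl (BMAL1) bind E-boxes as a pair and switch on the Per and Cry genes, whose proteins then hold the pair back. The same pair drives Nr1d1 and Nr1d2, nuclear receptors (REV-ERB alpha and beta) that repress Arntl through RORE sites, and Dbp, an output factor that binds D-boxes in Per and other promoters. In tissues that keep time, Arntl peaks at nearly the opposite hour from Nr1d1, Per3 and Dbp, so a level depends on the hour of sampling, which the labels do not give. The hour therefore cannot be told apart from the day in any comparison of days. Each sample title ends in a code of 6 digits, of which the first 4 split each day into replicates 1 and 2 (batch 1) and replicates 3 and 4 (batch 2). Age differed between days as well, except between days 2 and 4, and nothing says that the libraries of a group come from separate animals, so the spread behind each p-value is one between samples and may be technical.

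Sequences of the start sites are shown because the loop is wired through short motifs near them. RefSeq windows of 300 bases on GRCm38.p6 (250 before to 50 after a start) were held for 9 of the 10 genes, with 13 windows in all, and Per2 is named only. A window each is printed for Arntl, Nr1d1 and Dbp, the genes that passed the test at day 4. Arntl had another window (chr7:113207215-113207514), which held no motif match and is not printed. The sequences read from 5′ to 3′ on the gene's strand, with motif matches in capitals.

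Arntl, chr7:113207261-113207560, plus strand: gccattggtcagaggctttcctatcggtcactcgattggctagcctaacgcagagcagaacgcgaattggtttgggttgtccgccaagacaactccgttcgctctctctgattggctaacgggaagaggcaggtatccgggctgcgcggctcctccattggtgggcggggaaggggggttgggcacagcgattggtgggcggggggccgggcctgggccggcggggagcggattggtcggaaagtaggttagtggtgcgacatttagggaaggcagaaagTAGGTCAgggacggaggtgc

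Nr1d1, chr11:98775328-98775627, minus strand: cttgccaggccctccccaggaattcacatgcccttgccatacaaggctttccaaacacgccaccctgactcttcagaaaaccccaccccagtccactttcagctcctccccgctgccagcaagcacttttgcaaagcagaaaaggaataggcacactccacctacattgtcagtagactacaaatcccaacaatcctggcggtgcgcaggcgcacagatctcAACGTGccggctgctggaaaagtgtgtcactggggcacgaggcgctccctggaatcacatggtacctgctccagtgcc

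Dbp, chr7:45704997-45705296, plus strand: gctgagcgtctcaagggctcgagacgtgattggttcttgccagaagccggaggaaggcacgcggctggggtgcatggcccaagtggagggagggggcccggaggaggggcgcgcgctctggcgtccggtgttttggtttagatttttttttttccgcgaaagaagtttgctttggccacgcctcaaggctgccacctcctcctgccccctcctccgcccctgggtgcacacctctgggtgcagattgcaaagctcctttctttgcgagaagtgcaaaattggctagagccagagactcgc

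The capitals mark a RORE in Arntl (TAGGTCA; the search also took TGGGTCA) and an E-box variant in Nr1d1 (CACGTT, here read from the other strand as AACGTG). Both strands were searched for all motifs. The Dbp window held none of the motifs searched, and neither did the windows of Clock and Nr1d2. The E-box (CACGTG) was found in the windows of Cry1 and Per1, and the D-box (TTATGTAA or TTATGCAA) in those of Per1 and Per3, as the following stretches show, with the match in capitals.

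Cry1 E-box, chr10:85185092-85185131, minus strand: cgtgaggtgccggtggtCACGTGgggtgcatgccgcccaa

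Per1 E-box, chr11:69098766-69098805, plus strand: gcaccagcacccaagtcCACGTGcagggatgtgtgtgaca

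Per1 D-box, chr11:69098909-69098948, plus strand: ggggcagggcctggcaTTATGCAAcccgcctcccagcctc

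Per3 D-box, chr4:151044847-151044886, minus strand: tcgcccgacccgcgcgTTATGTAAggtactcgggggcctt

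Per3 D-box, chr4:151044800-151044839, minus strand: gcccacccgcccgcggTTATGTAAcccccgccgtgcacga

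The E-box variant was also matched in Cry1 and Cry2, and the CRE (TGACGTCA) in none of the 13 windows. Of all 32817 windows in the RefSeq table, 7.15% held the E-box, 4.69% its variant, 1.66% the D-box, 6.46% the RORE and 1.79% the CRE. A match is a string of letters in a window and not a bound site.

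Over the 16 libraries, values listed at 0 included, Nr1d1 had the highest mean level of the 10 at 10.4 FPKM, then Dbp at 7.18, Nr1d2 at 6.15, Cry1 at 4.24, Arntl at 3.90, Cry2 at 2.85, Clock at 1.51, Per3 at 0.984, Per2 at 0.925 and Per1 at 0.499 FPKM. The ranges of neighbours in this order overlapped, since every gene but Dbp and Clock was listed at 0 in at least 1 library. The genes varied widely between libraries of the same day. The library of day 0 replicate 1 had the most clock gene RNA, with a sum of 200.9 FPKM, and day 4 replicate 4 the least, with 0.344 FPKM. Day 0 replicate 1 also had the lowest summed microglia markers of the 16 libraries, at 3118 FPKM. Its sums of rod (9362 FPKM), endothelial (341 FPKM) and erythrocyte markers (418 FPKM) were the highest. Day 4 replicate 4 had 7733 FPKM of microglia markers. The part of other cells in the clock gene sums was not tested. Counts of clock genes at 1 FPKM or more were 10, 10, 4 and 6 of 10 in replicates 1 to 4 of day 0, then 4, 7, 2 and 2 at day 2, 5, 5, 3 and 0 at day 4, and 8, 6, 3 and 2 at day 7. Batch 1 had the higher count in every one of the 4 days. It also had the higher share of all tested genes at 1 FPKM or more on 3 of them. Those shares were 90.9% and 75.1% beside 61.4% and 64.3% in batch 2 at day 0, and 83.4% and 79.8% beside 63.9% and 65.8% at day 4. At day 7 they were 78.8% and 74.3% beside 68.6% and 56.2%. At day 2 the batches overlapped (69.7% and 74.0% beside 69.7% and 73.4%). The share of tested genes at 1 FPKM or more was 63.9% to 83.4% at day 4 and 61.4% to 90.9% at day 0, 2 ranges that overlapped. A single read in a member was worth far less than 1 FPKM: the limit that 3 reads allow ranged from 0.0139 FPKM in Clock, the longest, to 0.116 FPKM in Dbp, the shortest, and covers counting error only.

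**Figure D1:**
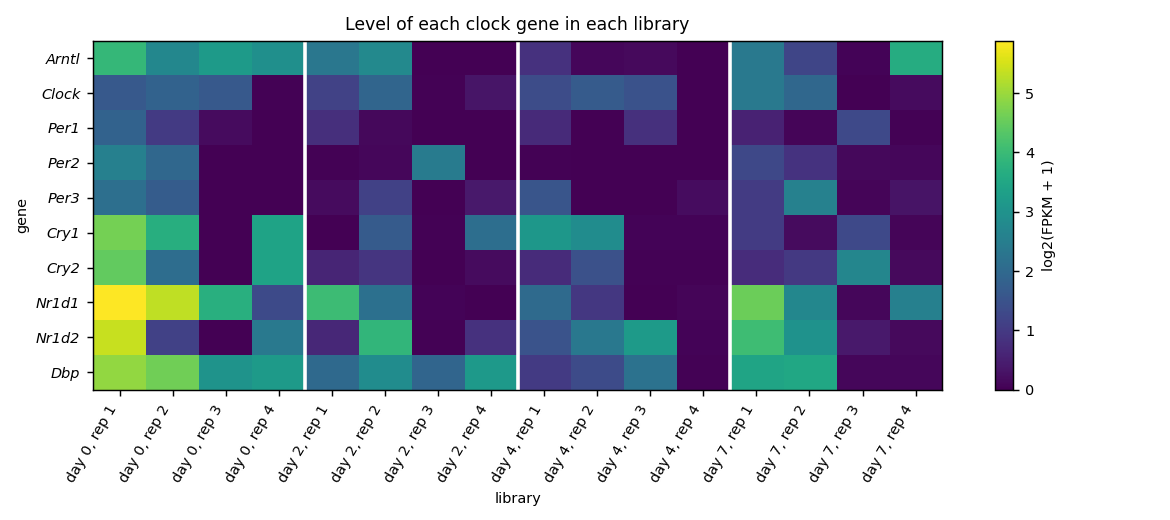
Heat map of log2(FPKM + 1) of the 10 clock genes (rows) in the 16 libraries (columns, ordered by day and replicate). Day 0 replicates 1 and 2 hold all 10 genes at 1 FPKM or more, and day 4 replicate 4 holds 0 of 10.

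Arntl (ENSMUSG00000055116.8, chr7:113207465-113314126, plus strand), the DNA-binding partner that the loop cannot run without, was the activator that differed most. It stood at 14.1, 5.55, 8.27 and 6.60 FPKM in replicates 1 to 4 of day 0, at 4.00, 5.83, 0 and 0 at day 2, at 0.790, 0.0800, 0.103 and 0 at day 4, and at 4.2, 1.33, 0.0376 and 11.4 at day 7. All 4 day 4 libraries lay below all 4 day 0 libraries. At day 7, replicate 4 was inside the day 0 range and the other libraries were below it. Clock (ENSMUSG00000029238.11, chr5:76209868-76304792, minus strand), the partner of Arntl, had 2.15, 2.62, 2.13 and 0.0212 FPKM at day 0, 1.23, 2.80, 0.0191 and 0.259 at day 2, 1.59, 2.24, 1.80 and 0.0151 at day 4, and 4.2, 2.91, 0.0155 and 0.133 at day 7. Its days overlapped. Replicate 4 was at or below 0.259 FPKM on every day, and the batch 1 libraries were at or above 1.23 FPKM.

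Nr1d1 (ENSMUSG00000020889.11, chr11:98767932-98775333, minus strand), which represses Arntl and, in macrophages, inflammatory genes, was the clock gene with the highest mean level. By median over the 16 libraries Dbp was higher, at 4.98 FPKM against 3.28 FPKM. Nr1d1 had 57.9, 39.2, 12.2 and 1.51 FPKM at day 0, 15.4, 3.49, 0.0340 and 0 at day 2, 3.07, 0.929, 0 and 0.0621 at day 4, and 22.7, 5.63, 0.0690 and 4.92 at day 7. Of the day 4 libraries, 3 lay below all of day 0, and day 4 replicate 1 lay above day 0 replicate 4. Its close relative Nr1d2 (ENSMUSG00000021775.11, chr14:18204054-18239127, minus strand) had 40.8, 1.20, 0 and 4.2 FPKM at day 0, 0.567, 13.6, 0.0193 and 0.789 at day 2, 1.82, 4.14, 8.26 and 0.0353 at day 4, and 15.6, 6.93, 0.327 and 0.103 at day 7. In Nr1d2 the days overlapped, and a single library carried most of the sum at day 0 and at day 2.

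Dbp (ENSMUSG00000059824.12, chr7:45705088-45710203, plus strand), the output factor of the D-box, had 29.6, 23.3, 7.13 and 8.23 FPKM at day 0, 3.05, 6.28, 2.80 and 8.02 at day 2, 0.99, 1.54, 3.67 and 0.0213 at day 4, and 9.75, 10.4, 0.0828 and 0.0678 at day 7. All 4 day 4 libraries were below all 4 day 0 libraries. At day 7 the batches split, with batch 1 between both day 0 batches and batch 2 near 0.

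Cry1 (ENSMUSG00000020038.10, chr10:85131700-85185064, minus strand), a main repressor of the Clock and Arntl pair, had 24.1, 11.9, 0 and 9.59 FPKM at day 0, 0, 2.22, 0.0313 and 3.39 at day 2, 7.63, 6.28, 0.0465 and 0.0381 at day 4, and 1.02, 0.124, 1.46 and 0.0608 at day 7. Cry2 (ENSMUSG00000068742.11, chr2:92403646-92434043, minus strand), the other cryptochrome repressor, had 21.3, 3.27, 0 and 9.72 FPKM at day 0, 0.521, 0.884, 0 and 0.118 at day 2, 0.656, 1.77, 0.0246 and 0.0201 at day 4, and 0.677, 0.954, 5.54 and 0.112 at day 7. In Cry1, 3 of the 4 day 0 libraries lay above all later libraries. In Cry2 the same 3 lay above all later libraries except day 7 replicate 3, and day 0 replicate 3 was listed at 0 for both genes.

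The period genes, whose proteins join the cryptochromes in repression, were low. Per1 (ENSMUSG00000020893.17, chr11:69095217-69109960, plus strand), which acute signals also induce, had 2.61, 1.01, 0.130 and 0 FPKM at day 0, 0.739, 0.0953, 0 and 0 at day 2, 0.622, 0, 0.759 and 0 at day 4, and 0.476, 0.0551, 1.46 and 0.0180 at day 7. Per2 (ENSMUSG00000055866.9, chr1:91415982-91459324, minus strand) had 4.91, 2.90, 0 and 0 FPKM at day 0, 0.0197, 0.0763, 4.48 and 0 at day 2, 0.0292, 0, 0 and 0 at day 4, and 1.41, 0.812, 0.0846 and 0.0693 at day 7. In Per1 the days overlapped. Per2 was near or at 0 in all day 4 libraries, and all 4 day 7 libraries lay above them, the lowest on 4 reads. The share of all genes tested that stand apart like this at these days is not given. The other pairs of days overlapped in Per2. Per3 (ENSMUSG00000028957.12, chr4:151003652-151044665, minus strand) had 3.46, 2.25, 0 and 0.00756 FPKM at day 0, 0.132, 1.21, 0 and 0.311 at day 2, 1.94, 0, 0.00809 and 0.152 at day 4, and 1.03, 4.96, 0.0516 and 0.232 at day 7. Per3 reached 1 FPKM only in batch 1 libraries.

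**Figure D2:**
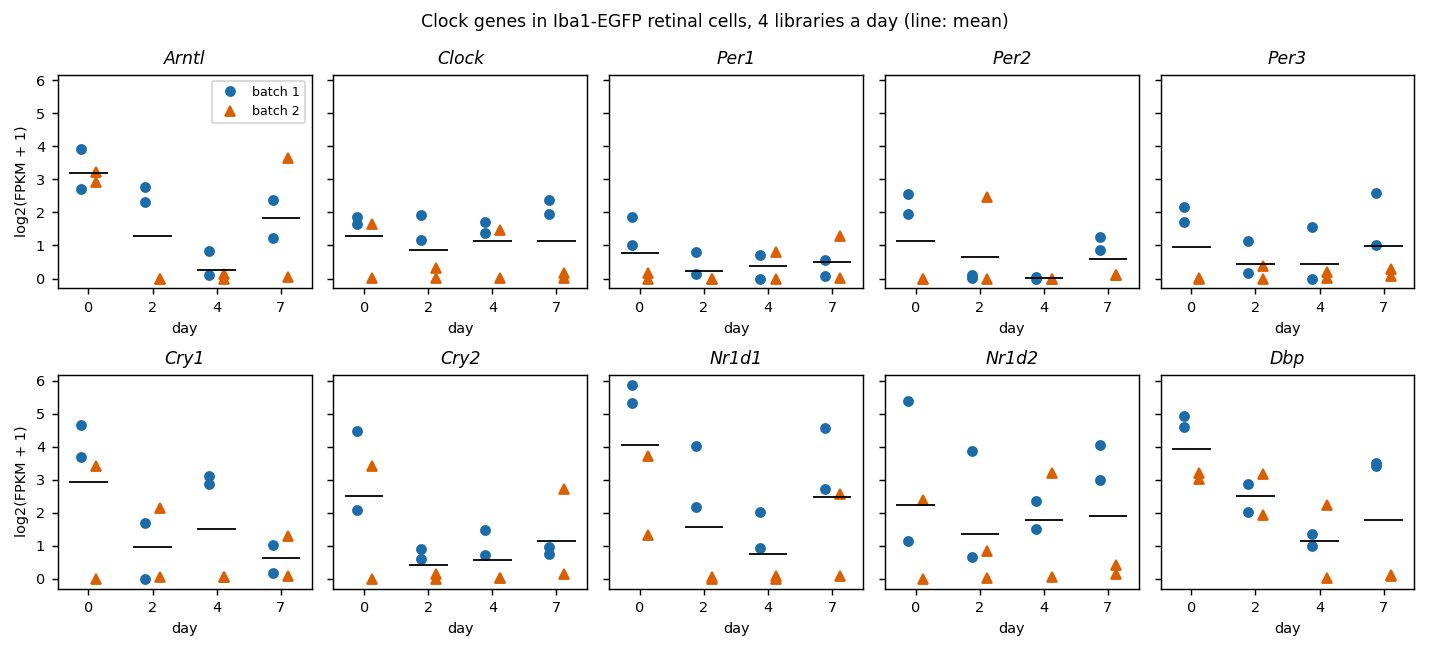
Level of each of the 10 clock genes in log2(FPKM + 1) (y axis) by day (x axis). Points are the 16 libraries, with the 2 batches of title codes marked apart, and lines are day means. Arntl and Dbp have every day 4 library below every day 0 library.

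The comparison of day 4 with day 0 asked how the clock genes stood 4 days after the crush. Arntl, Nr1d1 and Dbp fell, and the other tested clock genes did not pass the test. The changes of all 9 were under 0 in the main fit, and those of 6 of the 9 in batch 2 alone. In limma on log2(FPKM + 1), with day means and a batch covariate, Nr1d1 changed by -3.30 ± 0.72 (SE, n = 4 each, Benjamini-Hochberg adjusted p = 0.0165). Arntl changed by -2.92 ± 0.73 (limma adjusted p = 0.0327) and Dbp by -2.79 ± 0.71 (limma adjusted p = 0.0344). Of all 14795 genes tested, 5.34% were called in this comparison and 0.716% were called lower, beside 3 of the 9 clock genes called lower and 0 called higher. At an unadjusted p under 0.05 there were 4 of the 9, beside 20.9% of all genes tested. Groups that did not overlap, with day 4 the lower, were found in 1.89% of all tested genes, and in Arntl and Dbp among the clock genes. The genes were chosen by name with earlier results of these data known, so these p-values place them among all genes and are no independent support. In batch 1 and batch 2 the change was -4.12 and -2.48 for Nr1d1, -2.84 and -3.00 for Arntl, and -3.60 and -1.99 for Dbp, and no clock gene had a change that differed between the batches at the threshold (interaction in limma, smallest adjusted p over all 3 days 0.222). The calls depended on single libraries. Without day 4 replicate 2, 0 of the 3 passed, with changes of -2.72 for Arntl, -2.91 for Nr1d1 and -2.64 for Dbp (limma adjusted p of 0.106, 0.0695 and 0.105). Calls over all genes tested fell too in that fit, to 1.8%. Of the 3, only Nr1d1 passed without day 0 replicate 1, day 0 replicate 3, day 0 replicate 4, day 4 replicate 1 or day 4 replicate 4.

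The rest of the loop was spread around smaller changes at day 4. Cry2 changed by -1.93 (limma adjusted p = 0.163), Cry1 by -1.41 (limma adjusted p = 0.39) and Per2 by -1.12 (limma adjusted p = 0.327). Per3 changed by -0.52, Nr1d2 by -0.45 and Clock by -0.15, with limma adjusted p of 0.572, 0.844 and 0.885. The median change of the 9 was -1.41, beside 0.16 for all genes tested, and 44.0% of all tested genes had a change under 0. In bulk samples, fewer cells of a type and less RNA per cell cannot be told apart.

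Markers of other cells were read in the same libraries. The 10 bipolar cell markers summed to 0.452 to 58.3 FPKM per library at day 4 and 58.2 to 403 FPKM at day 0. The 10 Mueller glia markers summed to 579 to 6539 FPKM at day 4 and 2321 to 4108 FPKM at day 0, with Apoe, which microglia also express, the highest by mean (487 to 6476 FPKM at day 4 and 1850 to 3657 FPKM at day 0). Their mean log2 level was 2.66 to 3.67 at day 4 and 3.49 to 7.00 at day 0, and Aqp4, a water channel of these cells, was listed at 0 in all 4 day 4 libraries. The 10 rod markers summed to 1389 to 4080 FPKM at day 4 and 1839 to 9362 FPKM at day 0, with none at 0 in all libraries of either group. The 6 endothelial markers summed to 0.115 to 2.45 FPKM at day 4 and 0 to 341 FPKM at day 0, with both batch 1 libraries of day 0 high. The 5 erythrocyte markers summed to 0 to 0.904 FPKM at day 4 and 1.10 to 418 FPKM at day 0. The 6 monocyte markers summed to 0.351 to 10.4 FPKM at day 4 and 0.411 to 19.3 FPKM at day 0. Immediate early and dissociation genes (24), a list of acute signals, summed to 1114 to 1407 FPKM at day 4 and 284 to 2109 FPKM at day 0. The part of the immune, blood and acute signals in the clock gene changes was not tested. With the mean level of rod, bipolar cell and Mueller glia markers as a covariate in limma, none of the clock genes passed the test at day 4. Only 0.25% of all genes tested were called in this fit, against 5.34% without the covariate. Arntl then changed by -3.30 (adjusted p = 0.228), Nr1d1 by -2.86 (adjusted p = 0.281) and Dbp by -2.66 (adjusted p = 0.321), and the median of the 9 was -0.52. Without both batch 1 libraries of day 0, which held the most RNA of bipolar and endothelial cells, 0 of the 9 passed, beside 1.93% of all genes tested. The changes were then -3.28 for Arntl, -2.90 for Nr1d1 and -2.52 for Dbp (limma adjusted p of 0.106, 0.152 and 0.215). This last fit was added after the data had been seen.

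Strand is not marked by the library kit, so where genes share exon bases on opposite strands their reads cannot be told apart. Dbp shares 18.0% of its exon bases with Sphk2, a sphingosine kinase, which changed by -1.74 at day 4 against day 0 (limma adjusted p = 0.221). Nr1d1 shares 8.55% with Thra, a thyroid hormone receptor, which fell by 1.96 on the log2 scale (limma adjusted p = 0.0389). Cry2 shares 4.67% with D930015M05Rik, and Arntl 0.439% with Gm45355, which changed by -2.06 (limma adjusted p = 0.07). How much of each clock gene change comes from shared bases was not tested.

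Day 2 against day 0 gave no call among the clock genes in limma (0 of 9, beside 0.311% of all genes tested), and 4 of the 9 had an unadjusted p under 0.05, beside 9.73% of all genes tested. All 9 changes were under 0, as were those of 47.4% of all genes tested, and their median was -1.45 beside 0.04. The changes furthest from 0 were those of Nr1d1 at -2.50 (limma adjusted p = 0.197), Cry2 at -2.08 (adjusted p = 0.358), Cry1 at -1.97 (adjusted p = 0.475) and Arntl at -1.92 (adjusted p = 0.374). Dbp changed by -1.45, Nr1d2 by -0.88, Per3 by -0.54, Per2 by -0.48 and Clock by -0.44, each with a limma adjusted p of at least 0.532.

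Day 7 against day 0 gave no call among the clock genes either (0 of 9 in limma, beside 0.406% of all genes tested), with 3 of 9 at an unadjusted p under 0.05, beside 12.1%. The change was under 0 in 8 of 9, beside 53.7% of all genes tested, and the median was -1.35 beside -0.07. Cry1 changed by -2.29 (limma adjusted p = 0.303), Dbp by -2.16 (adjusted p = 0.237), Nr1d1 by -1.58 (adjusted p = 0.396), Arntl by -1.37 (adjusted p = 0.468) and Cry2 by -1.35 (adjusted p = 0.492). Per2, Nr1d2 and Clock changed by -0.55, -0.33 and -0.16, and Per3 by 0.03. All comparisons against day 0 share the day 0 libraries.

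Between injured days no clock gene passed the test. Day 4 against day 2, the only pair of days at the same age, had 0 of 9 called (0.453% of all genes tested) and 0 at an unadjusted p under 0.05 (11.4% of all), with a smallest limma adjusted p of 0.503. Day 7 against day 4 had 0 of 9 called (1.63% of all) and 1 at an unadjusted p under 0.05 (16.3% of all), with a smallest limma adjusted p of 0.242. In this pair Nr1d1 changed by 1.72 and Arntl by 1.55, and 3 of 4 day 7 libraries lay above all day 4 libraries in each gene. In Per2 all 4 day 7 libraries did, at 0.0693 to 1.41 FPKM against 0 to 0.0292 FPKM. How often libraries of these days stand apart like this over all genes tested is not given here, so these counts are values only. Over the 4 days together, the limma F test called 0 of 9 clock genes and 2.89% of all genes tested, and 3 of the 9 had an unadjusted p under 0.05, beside 19% of all. Nr1d1 had an adjusted p of 0.0609 in it, Dbp 0.114 and Arntl 0.121, and the other clock genes at least 0.292.

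**Figure D3:**
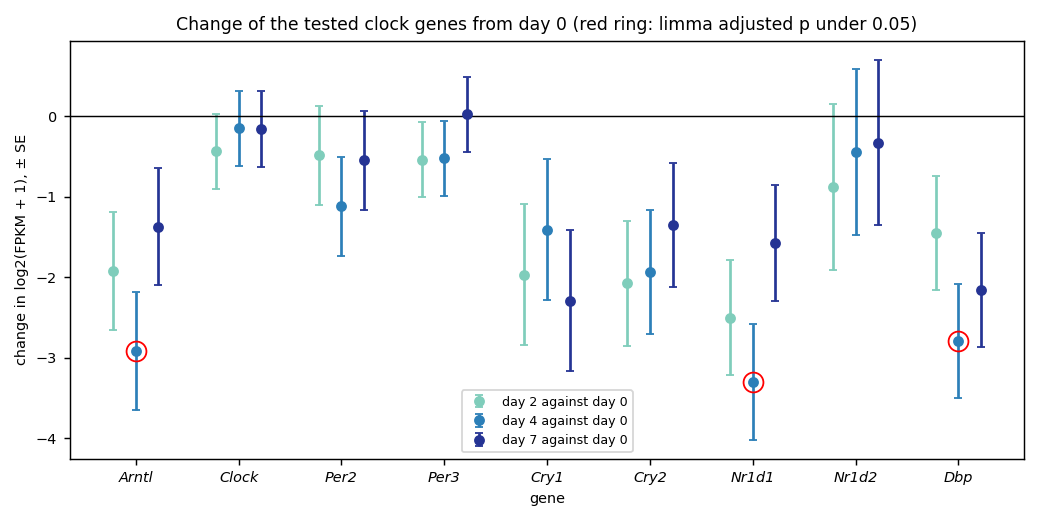
Change of each tested clock gene in log2(FPKM + 1) against day 0 at days 2, 4 and 7, as the limma estimate with its standard error, with a red ring at an adjusted p under 0.05. Nr1d1, Arntl and Dbp are called at day 4, at -3.30, -2.92 and -2.79.

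Each title code holds 2 libraries of each of 2 days, which allows day and code to be set apart, whatever the code stands for. In the code shared by day 4 and day 0 of batch 1, Arntl was at 0.790 and 0.0800 FPKM at day 4, against 14.1 and 5.55 FPKM at day 0. There Nr1d1 was at 3.07 and 0.929 FPKM at day 4, against 57.9 and 39.2 FPKM at day 0, and Dbp at 0.99 and 1.54 FPKM at day 4, against 29.6 and 23.3 FPKM at day 0. In none of the 3 genes did the pairs of this code overlap, which for Arntl and Dbp follows from the full groups not overlapping. The pairs did not overlap in Per1, Per2, Per3, Cry1 or Cry2 either, and did in Clock and Nr1d2. How often pairs of 2 libraries stay apart over all genes was not computed. In the code shared by day 2 and day 0 of batch 2, Arntl was listed at 0 in both day 2 libraries, against 8.27 and 6.60 FPKM at day 0. Nr1d1 in these libraries was at 0.0340 and 0 FPKM at day 2, against 12.2 and 1.51 FPKM at day 0, and Dbp at 2.80 and 8.02 FPKM at day 2, against 7.13 and 8.23 FPKM at day 0. Of the 3 genes, the pairs overlapped in Dbp only. Both of these day 2 libraries carry the title prefix F and the other 14 libraries M, which the labels do not explain, so in this code prefix and day cannot be told apart. In the code shared by days 7 and 2 of batch 1, Dbp was at 9.75 and 10.4 FPKM at day 7, against 3.05 and 6.28 FPKM at day 2, and Arntl at 4.2 and 1.33 FPKM at day 7, against 4.00 and 5.83 FPKM at day 2. In the code shared by days 7 and 4 of batch 2, Dbp was at 0.0828 and 0.0678 FPKM at day 7, against 3.67 and 0.0213 FPKM at day 4, and Arntl at 0.0376 and 11.4 FPKM at day 7, against 0.103 and 0 FPKM at day 4. With 2 libraries a side, these pairs are values with no test of their own.

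A limma fit of day and code then tested whether the clock genes differed between the 4 codes at equal day. None of the 9 was called (adjusted p of 0.11 for Nr1d1, 0.175 for Clock, 0.241 for Cry1, 0.286 for Per3 and at least 0.411 for the others), beside 0.669% of all genes tested. At an unadjusted p under 0.05 there were 4, Nr1d1, Clock, Cry1 and Per3, beside 16.1% of all genes tested. With the full code as covariate in place of the batch, Nr1d1 stayed called at day 4 against day 0 (limma adjusted p = 0.0381), and Arntl (adjusted p = 0.0572) and Dbp (adjusted p = 0.187) did not pass.

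**Figure D4:**
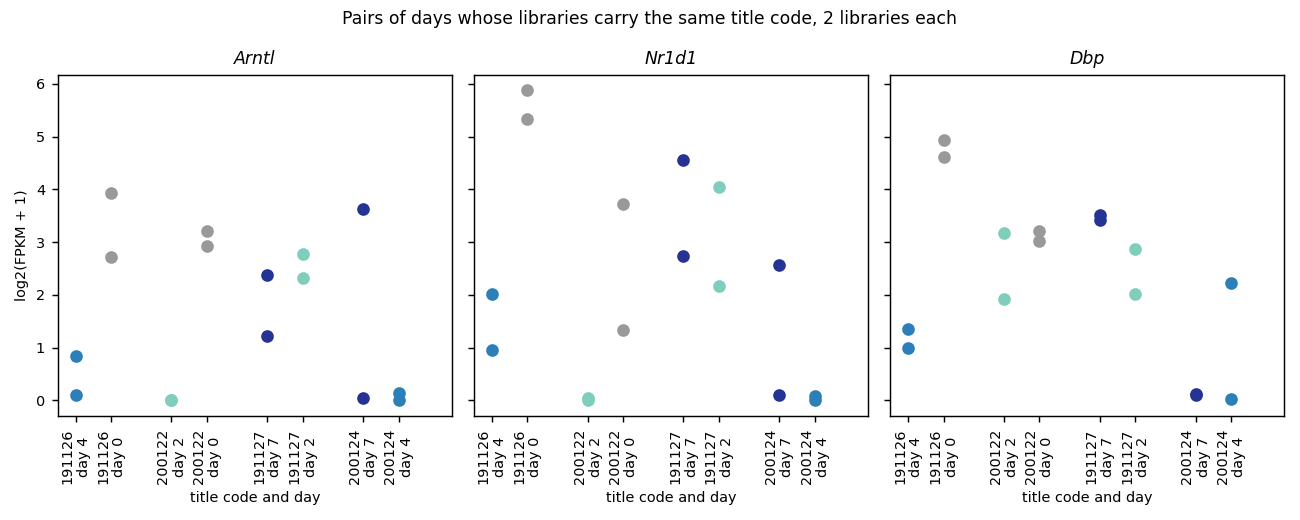
Level in log2(FPKM + 1) (y axis) of Arntl, Nr1d1 and Dbp by title code and day (x axis), with a point for each of the 2 libraries of a code and day. Points can coincide, as for Arntl at 0 in both day 2 libraries of batch 2.

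The loop predicts which clock genes peak together, so 6 relations were computed over the 16 libraries on log2(FPKM + 1). Arntl and Nr1d1, which peak at different hours in tissues that keep time, were high in the same libraries, with Pearson r = 0.803 (permutation p = 0.00041, adjusted over the 6 relations 0.00246) and Spearman rho = 0.765 (permutation p = 0.00093, adjusted 0.00558). Without day 0 replicate 1 and day 7 replicate 4, the libraries furthest from the median of Arntl, r was 0.798. It was 0.834 within batch 1 and 0.911 within batch 2 (n = 8 each), and 0.606 on the residuals from day and batch. Dbp and Nr1d1, both driven through E-boxes, had r = 0.630 (permutation p = 0.00908, adjusted 0.0272) and rho = 0.543 (permutation p = 0.0318, adjusted 0.0953). This relation did not hold within batch 2: r was 0.818 in batch 1, 0.161 in batch 2 and -0.0844 on the residuals, and it was 0.677 without day 4 replicate 4 and day 7 replicate 4. Arntl and Dbp had r = 0.477 (permutation p = 0.0637, adjusted 0.0955) and rho = 0.451, with 0.782 in batch 1, 0.153 in batch 2, -0.299 on the residuals and 0.643 without the same 2 libraries as for Arntl and Nr1d1. Dbp and Per3 had r = 0.554 (permutation p = 0.0269, adjusted 0.0538) and rho = 0.454, with 0.618 in batch 1 and -0.236 in batch 2. Arntl had r = 0.309 with Nr1d2 and 0.318 with Per3 (permutation p, adjusted, of 0.24 for each). None of the 6 had a negative r over all libraries. The libraries share day, batch and depth, which these values include.

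**Figure D5:**
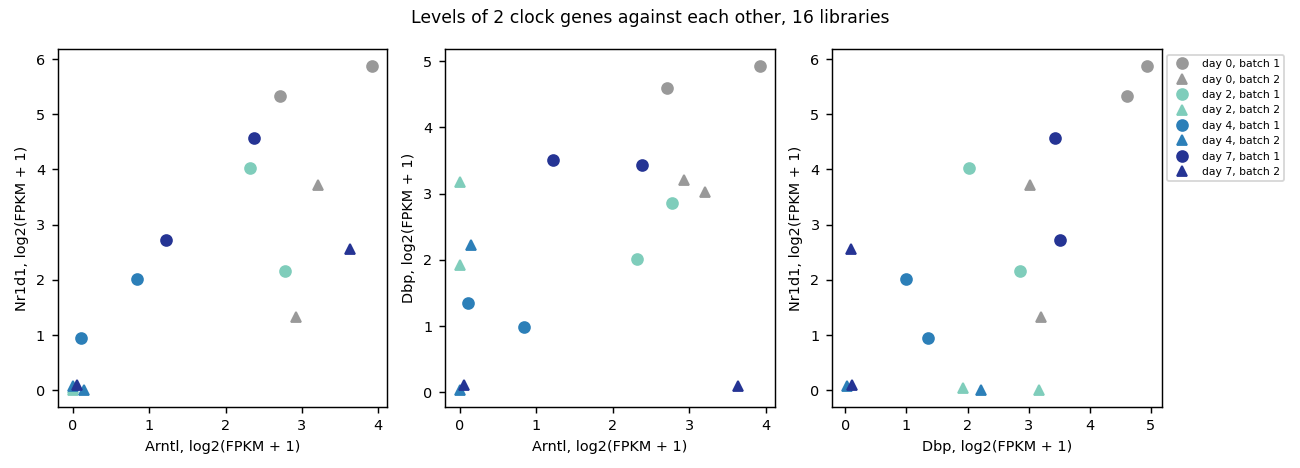
Pairs of clock genes in log2(FPKM + 1) on both axes, with a point for each of the 16 libraries, coloured by day. Arntl and Nr1d1 are high in the same libraries (r = 0.803), and Arntl and Dbp less so (r = 0.477); the difference between these values was not tested.

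Of 32 other genes of the clock pathway, 27 were tested and the rest were too low. At day 4 against day 0, 1 was called higher and 1 lower, beside 4.62% and 0.716% of all genes tested, and the median change of the 27 was -0.06. Tipin, the partner of Timeless that also serves at replication forks, rose, at 64.1 to 157 FPKM in the 4 day 4 libraries against 0 to 19.8 FPKM in the 4 day 0 libraries, a change of 3.42 ± 0.73 (SE, limma adjusted p = 0.0147) with all 4 libraries above. Gsk3b, a kinase that phosphorylates several clock proteins, fell, at 1.26 ± 0.831 FPKM at day 4 against 7.05 ± 1.44 FPKM at day 0 (SD, n = 4 each), a change of -1.89 ± 0.49 (SE, limma adjusted p = 0.0399) with all 4 libraries below. Tipin kept its call with any single library left out, and Gsk3b lost it without any single library of day 0 or day 4 (limma adjusted p of 0.0605 to 0.127) and without day 2 replicate 2 (adjusted p = 0.0524). Other settings took the call of Tipin away: the title code as covariate (limma adjusted p = 0.115), a pseudocount of 0.1 FPKM (0.0609), no filter (0.0568), median-of-ratios factors (0.0527) and batch 2 alone (0.238). Of these settings, Gsk3b kept its call only with median-of-ratios factors (limma adjusted p = 0.0386). At an unadjusted p under 0.05 there were 5 of the 27 at day 4, beside 20.9% of all genes tested. At day 2 and day 7 against day 0, limma called 0 of the 27, beside 0.311% and 0.406% of all genes tested. There were 5 and 6 at an unadjusted p under 0.05, beside 9.73% and 12.1%. The medians were -0.48 and -0.68, beside 0.04 and -0.07 for all genes tested. The other 7 of the 8 pathway genes with the highest mean levels, after Tipin, did not pass the test at day 4. Csnk2b, a casein kinase subunit, was at 61.4 ± 17.8 FPKM at day 4 and 39.3 ± 12.5 FPKM at day 0, Fbxw11, a ubiquitin ligase part that takes PER proteins, at 29.3 ± 4.38 and 25.5 ± 7.46 FPKM, and Csnk1d, the kinase that marks PER proteins for it, at 23.0 ± 10.3 and 18.4 ± 5.93 FPKM (SD, n = 4 each, day 4 then day 0). Ppp1cb, a phosphatase subunit, was at 16.6 ± 7.46 FPKM at day 4 and 18.8 ± 7.5 FPKM at day 0, and Usp2, a deubiquitinase, at 13.9 ± 9.40 and 19.3 ± 6.95 FPKM. Hdac3, the deacetylase that NR1D1 recruits through NCOR1, was at 15.3 ± 3.48 FPKM at day 4 and 7.62 ± 6.80 FPKM at day 0 (change 1.41, limma adjusted p = 0.28), and Nampt, an enzyme of NAD synthesis, at 15.6 ± 4.43 and 10.2 ± 7.39 FPKM.

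The tested genes most like the 4 clock genes of highest mean level over the 16 libraries, by Pearson r on log2(FPKM + 1) and given with no p, were as follows. For Nr1d1 they were Fam169a (r = 0.924), Dapl1 (0.919) and Ankrd28 (0.911). For Dbp they were Id3 (r = 0.844), Ptprm (0.831) and Pla2g5 (0.826). For Nr1d2 they were Gpnmb (r = 0.872), Zfp322a (0.867) and Cys1 (0.858), and for Cry1, Gm45812 (r = 0.907), Gm10651 (0.9) and Camkk1 (0.878). The clock genes themselves were left out of this search. None of the 12 is a gene of the clock pathway list. Without day 0 replicate 1 each r was lower, from 0.777 for Pla2g5 to 0.911 for Fam169a. Dapl1 was at 53.6 FPKM in that library, beside a mean of 8.58 FPKM. Camkk1 was at 32.1 FPKM there, beside a mean of 3.96 FPKM. Ankrd28 was low, with a mean of 0.694 FPKM.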

How the data were processed

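RNA of Iba1-EGFP-positive retinal cells was sequenced in 16 libraries, 4 each at days 0, 2, 4 and 7, grouped by the labels. Libraries were made from amplified cDNA of lysed cells with Nextera XT, per the labels' protocols, so strand is not marked. The authors deposited FPKM for 55385 genes, which per the submitters' processing notes rest on STAR 2.7.2b, featureCounts 1.6.1 and the build GRCm38.p6 (mm10). The sources used here do not give the treatment of multimapping reads. FPKM times length fell on steps of 0.01 read, which gave 8647276 to 15708302 reads per library. Only 47.4% to 63.8% of values above 0 were whole reads (tolerance 0.02 read), so no count test was run. The floor of 3 reads covers counting error only. A value of 0 is given as listed at 0. It stands for no reads assigned to the gene and does not show that its RNA was absent.

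Genes with at least 1 FPKM in 4 or more libraries were tested with limma 3.58.1 (R 4.3.3; lmFit, eBayes with a trend, two-sided) on log2(FPKM + 1), which understates changes of low genes. All 16 libraries entered a single fit with a mean per day and the batch (the first 4 digits of the title code, a reading of the titles). P-values were adjusted by Benjamini-Hochberg over all 14795 genes, with a threshold of 0.05. F tests covered days and codes, and an interaction fit the batches. Correlations used 100000 permutations. The clock genes and all lists were chosen with earlier results of these data known. Named were all 10 clock genes, pathway genes called against day 0 or among the 8 highest, the 3 most alike genes for the 4 clock genes of highest mean level, and up to 4 genes of other lists. Promoter windows and coordinates come from RefSeq and GENCODE tables on GRCm38. Alternatives were other covariates, a pseudocount of 0.1 FPKM, no filter, median-of-ratios factors, each batch alone, robust moderation, a replicate block and each library left out. Fits with the number of detected genes as covariate and without the day 0 libraries of batch 1 were added after seeing the data.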

Additional observations from a re-analysis of the deposited data

Results flagged for a closer look

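In 8 of 40 groups of 4 libraries (10 genes, 4 days), 1 library stood apart from the other 3 by more than the critical value of Dixon's test. Chance flags about 1 group in 20 where values are normally distributed. The test was run on FPKM without a log, many of them at 0, so that rate need not hold here. Arntl was at 0.790 FPKM in day 4 replicate 1, with the nearest library at 0.103. Per1 was at 0.739 FPKM in day 2 replicate 1 (nearest 0.0953). Per2 was at 4.48 FPKM in day 2 replicate 3 (nearest 0.0763) and at 0.0292 FPKM in day 4 replicate 1 (the others listed at 0). The latter value is 2 reads, under the limit of 3 reads at 0.0438 FPKM. Per3 was at 1.94 FPKM in day 4 replicate 1 (nearest 0.152). Cry2 was at 5.54 FPKM in day 7 replicate 3 (nearest 0.954). Nr1d2 was at 40.8 FPKM in day 0 replicate 1 (nearest 4.2) and at 13.6 FPKM in day 2 replicate 2 (nearest 0.789). In all 8 the library that stood apart was the highest of its group.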

How the results depend on the processing

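Of the 1305 alternative values of the clock gene changes, 1239 kept their direction and their side of the threshold or moved by less than the error. Most of these changes were not called in the main fit and had no call to lose, so this total says little about the calls. The 34 values that lost a call all belonged to Arntl, Nr1d1 and Dbp at day 4. Arntl lost its call with 7 of the 16 libraries left out singly and in 6 other settings. The matching numbers were 7 and 8 for Dbp, and 1 and 5 for Nr1d1. In no alternative did a called change reverse. The shared direction at day 4 did not hold in every setting. Changes under 0 were found in 9 of 9 clock genes in the main fit. They were found in 6 of 9 in batch 2 alone and with the retinal marker covariate. Without the day 0 libraries of batch 1 they were found in 8 of 9. Of the 9 tested clock genes, 3 were called at day 4 against day 0, beside 5.34% of all genes tested. With no batch covariate, with the title code, with no filter and in batch 1 alone, 1 was called. The shares of all genes called in these fits were 3.99%, 2.56%, 0.624% and 2.05%. None was called in batch 2 alone, with the level of retinal cell markers as covariate or without the day 0 libraries of batch 1. Few genes of any kind were called there, at 0%, 0.25% and 1.93% of all genes in the fit. A pseudocount of 0.1 FPKM left 2. Leaving out each library gave 0 to 3, with 2 of the 9 called without day 0 replicate 2 (Arntl, Nr1d1), day 0 replicate 3 (Nr1d1, Cry2) or day 4 replicate 3 (Nr1d1, Dbp). With the title-prefix F libraries (day 2 replicates 3 and 4) left out together, 3 were called. The F test over days called 0 with all libraries, and 0 to 1 with a library left out (1 without day 0 replicate 4 or day 7 replicate 4). Cry2, not called with all libraries, had a change of -2.72 without day 0 replicate 3 (limma adjusted p = 0.0394). In batch 2 alone, adjusted p was 0.397 for Arntl, 0.445 for Nr1d1 and 0.489 for Dbp. Of the 27 other pathway genes tested, 2 were called at day 4, and 1 was called with no batch covariate, median-of-ratios factors, batch 1 alone, the marker covariate or no day 0 libraries of batch 1, and 0 with the title code, a pseudocount of 0.1 FPKM, no filter or batch 2 alone, and 1 to 3 with a library left out. At day 2 the count was 0 to 1 with a library left out (1 without day 0 replicate 3), and at day 7 it was 1 with the marker covariate. The cause of each loss was not tested, except that fits on a single batch hold fewer samples and the unfiltered fit more genes.

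Same-numbered libraries did not pair (correlations of deviations from -0.0562 to 0.234, and 5 of 16 libraries matched best with their own number). With the replicate block in place of the batch, 2 clock genes were called at day 4, and Dbp had an adjusted p of 0.0616 in limma.

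Correlations that moved were those of Arntl with Nr1d2 within batch 2 (-0.0582), Arntl with Dbp without 2 libraries (0.643), in batch 1 (0.782) and on residuals (-0.299), Arntl with Per3 in batch 2 (-0.0565) and on residuals (-0.167), Dbp with Nr1d1 in batch 2 (0.161) and on residuals (-0.0844), and Dbp with Per3 in batch 1 (0.618), in batch 2 (-0.236), on residuals (0.423) and with a pseudocount of 0.1 FPKM (0.415). Depth limits the lowest values, several of which rest on few reads.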
